A study of Mus musculus with 8 samples.

Results

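The liquid-culture libraries of a mouse megakaryocyte series were described across all of its genes. They were 4 RNA-seq libraries of 8 in all, selected by their culture label alone. The cells came from bone marrow of wild-type C57BL/6 mice. Lineage-negative cells were obtained by magnetic removal of the other marrow cells and kept for 3 days in liquid medium, after which a gradient of 2 to 4% bovine serum albumin was used to collect the large, mature cells. The sources used here do not state the cytokines in the medium or the sex and age of the mice. The submitters describe the 4 cultures as independent biological replicates, without saying whether each came from its own mouse. They are referred to as liquid 1 to liquid 4 here, and no library of the other culture condition was used. The gradient selects by size and not by a surface marker, so cells of other kinds can remain, and bulk RNA cannot assign a transcript to a cell.

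Megakaryocytes are the marrow cells that release platelets. Under the hormone thrombopoietin they replicate their DNA without dividing, build up an internal membrane system, and fill granules with adhesive and signalling proteins. They then extend proplatelets, long processes driven by microtubules, from which platelets are shed. Platelets have no nucleus, so the receptors, granule cargo and cytoskeleton they carry are largely made beforehand by the megakaryocyte. Levels are given in CPM, the counts of a gene in each 1000000 counts of its library, as mean ± SD over the 4 cultures. CPM grows with the length of a transcript, so an order of genes by CPM is an order of their counts, and levels of different genes are compared in TPM, computed here from the counts per kilobase of exon.

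The promoters of 5 genes are shown because these genes mark the lineage and were abundant in every culture. Each line holds the 250 bases before the start of the gene, 5′ to 3′ on the strand of the gene, from RefSeq on GRCm38.p6. That is an earlier build than the one used for counting, and serves for the sequence only. Of 6 genes looked up, Itgb3 was not in the table used here. Capitals mark matches to 4 kinds of motif, searched on both strands. The GATA-type was searched for as AGATAA and, in a second form of the same motif, as TGATAA. The ETS-type was likewise searched for as AGGAAG and, in its second common form, as CGGAAG. The core shared by AP-1 and NF-E2 was searched for with the letters TGAGTCA. The TATA box was searched for with the letters TATAAA.
Itga2b (chr11:102469884-102470133, minus strand): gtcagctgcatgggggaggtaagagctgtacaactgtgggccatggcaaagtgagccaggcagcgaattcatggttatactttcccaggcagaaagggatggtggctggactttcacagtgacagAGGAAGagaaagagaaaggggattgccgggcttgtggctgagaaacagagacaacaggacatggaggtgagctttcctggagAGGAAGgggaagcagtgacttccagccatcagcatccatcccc
Gp1ba (chr11:70638872-70639121, plus strand): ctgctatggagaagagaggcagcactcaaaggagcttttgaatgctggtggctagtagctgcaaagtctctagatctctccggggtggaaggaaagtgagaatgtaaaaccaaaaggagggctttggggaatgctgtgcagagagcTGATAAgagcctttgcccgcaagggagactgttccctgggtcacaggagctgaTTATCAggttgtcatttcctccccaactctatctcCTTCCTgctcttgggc
Gp9 (chr6:87777820-87778069, plus strand): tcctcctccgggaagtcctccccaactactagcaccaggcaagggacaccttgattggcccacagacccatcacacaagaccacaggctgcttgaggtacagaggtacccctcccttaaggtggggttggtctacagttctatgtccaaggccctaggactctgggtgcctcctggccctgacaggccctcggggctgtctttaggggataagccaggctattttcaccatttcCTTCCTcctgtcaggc
Pf4 (chr5:90772185-90772434, plus strand): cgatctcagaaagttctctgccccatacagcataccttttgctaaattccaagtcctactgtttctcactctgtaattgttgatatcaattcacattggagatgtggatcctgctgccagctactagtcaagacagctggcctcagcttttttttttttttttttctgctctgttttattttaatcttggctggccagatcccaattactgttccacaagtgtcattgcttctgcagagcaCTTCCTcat
Ppbp (chr5:90768268-90768517, plus strand): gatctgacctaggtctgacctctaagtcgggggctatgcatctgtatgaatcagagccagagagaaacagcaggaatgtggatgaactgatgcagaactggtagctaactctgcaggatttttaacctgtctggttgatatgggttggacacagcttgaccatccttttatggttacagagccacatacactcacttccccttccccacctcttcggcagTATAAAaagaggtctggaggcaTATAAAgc

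The Itga2b window held AGGAAG in 2 places, from base -125 to -120 and from -43 to -38 relative to the start, and none of the other letters. Gp1ba held TGATAA at -104 to -99 and, in reverse complement, at -51 to -46. Gp1ba and Gp9, which encode subunits of the same receptor, each held AGGAAG in reverse complement at -16 to -11. Pf4 held AGGAAG in reverse complement at -9 to -4. Ppbp held TATAAA at -30 to -25 and again at -8 to -3. Ppbp and Pf4 are neighbours on the plus strand of chromosome 5, with starts 3917 bases apart in that build. Of the 20 megakaryocyte marker genes used below, 15 had a promoter in the table. A GATA-type match of either form was present in 6 of these 15 windows (40.0%) and in 16.6% of all 32851 windows. An ETS-type match of either form was present in 9 of the 15 (60.0%) and in 39.2% of all windows. The forms within a pair differ in their opening letter, so a stretch is never counted under both in the same orientation. TGAGTCA was in 0 of the 15 windows and 4.46% of all. Among the 93 windows of the 100 most abundant genes, 13.98% held a GATA-type and 45.2% an ETS-type match. These are matches of letters, and binding was not measured.

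The libraries held 28825468 (liquid 2) to 49281611 (liquid 3) counts, so that 3 counts correspond to 0.0609 to 0.104 CPM. Pearson correlations of log2 CPM between cultures ran from 0.979 to 0.994. Liquid 2 stood apart: among 8312 genes with a mean of at least 10 CPM, it was the highest culture for 51.6%, and 489 genes were more than 1.5-fold above the mean of the other cultures there, against 4 to 27 genes in each of the others. Liquid 3 was the lowest culture for 41.8% of the genes. CPM is scaled by library total alone, and the median gene of this set stood in liquid 2 at 1.09 times the mean of the other cultures. TMM scaling, which levels the typical gene, would divide liquid 2 by 1.08 and liquid 3 by 0.952. The part of this general shift in these percentages was not tested. Results that rest on liquid 2 are given with and without it.

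The 4 defining markers of the lineage were abundant in every culture. Itga2b and Itgb3 encode the αIIb and β3 subunits of the platelet fibrinogen receptor. Itga2b stood at 7168, 5422, 6664 and 5468 CPM in liquid 1 to liquid 4. Itgb3 stood at 10515, 7420, 11114 and 9488 CPM in the same order. Liquid 2 was the lowest for both, by a narrow margin for Itga2b, where liquid 4 was nearly as low. Pf4, the platelet factor 4 chemokine, had 5197, 4341, 4819 and 5504 CPM. Gp1ba, the ligand-binding subunit of the von Willebrand factor receptor, had 1643, 1275, 1986 and 1986 CPM. The 4 genes ranked 10, 3, 15 and 38 by mean CPM among 27679 listed genes.

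All 20 genes of the megakaryocyte marker list exceeded 10 CPM in every culture, and together they held 4.99 ± 0.751% of the counts (5.36% without liquid 2). The list had 5.33%, 3.88%, 5.54% and 5.22% of counts in liquid 1 to liquid 4, so liquid 2 was clearly below the other cultures. It was the lowest culture for 19 of the 20 genes, the exception being Nbeal2, a protein needed to form alpha-granules. Over all 8312 genes with a mean of at least 10 CPM, liquid 2 was the lowest for 18.5%. In bulk RNA, fewer megakaryocytes among the cells and less of these transcripts per megakaryocyte cannot be told apart. The lowest marker, by CPM and by TPM, was Gp1bb at 48.7 ± 6.63 CPM. Of the 50-base windows of its transcript, 92.8% also occur in transcripts of another gene, and the part of this in its level was not tested.

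**Figure D1:**
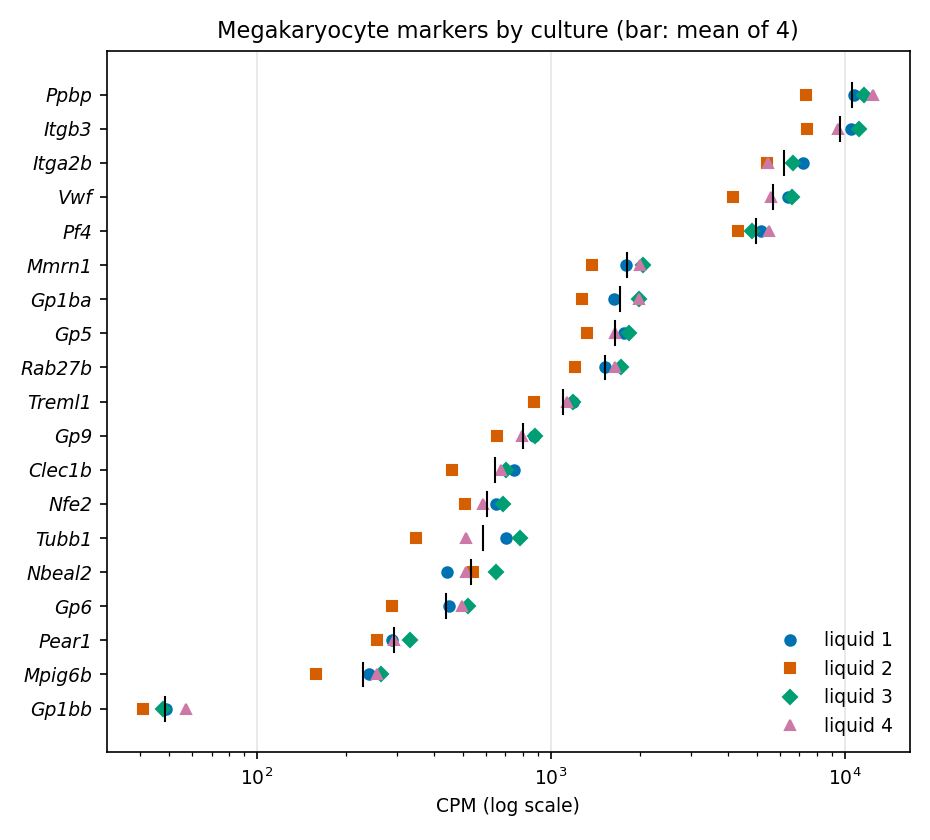
CPM (log scale) of 19 megakaryocyte marker genes in each of the 4 liquid cultures, with a bar at the mean. Liquid 2 is the lowest culture for 18 of the genes drawn, and Gp1bb, at 48.7 CPM, lies apart from the other markers.

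The pool was broad with a steep head. In every culture, 11249 genes (40.6% of those listed) reached 1 CPM, 1909 reached 100 CPM and 71 reached 1000 CPM. The 10 most abundant genes of a library held 8.40 ± 0.151% of its counts, the 100 most abundant 24.7 ± 1.11%, and 662 ± 75.7 genes held 50% of them. The last number was 773 in liquid 2 and 602 to 639 in the other cultures. Protein-coding genes held 99.1 ± 0.0222% of counts.

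**Figure D2:**
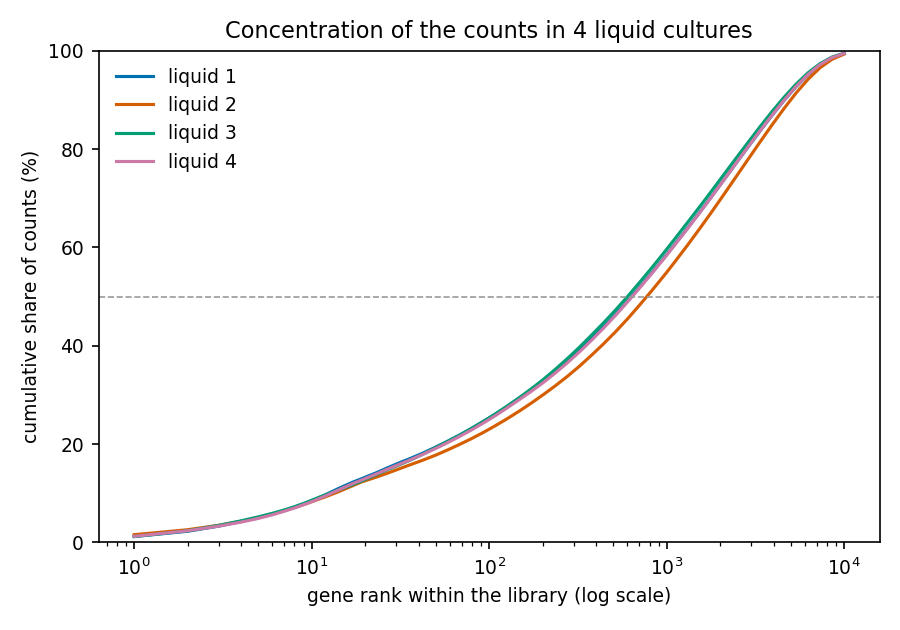
Cumulative share of a library's counts (%) against gene rank within the library (log scale), 1 line per liquid culture, with a dashed line at 50%. The curves nearly coincide up to the 10 most abundant genes, and the liquid 2 curve then runs below the others, reaching 23.03% at 100 genes against 25.003 to 25.34% in the others.

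By counts, the mitochondrial gene mt-Co1 came first with 11452 ± 3684 CPM, followed by the chemokine precursor Ppbp (10541 ± 2237) and Itgb3 (9634 ± 1622). Next came Thbs1 (8778 ± 2578), which encodes the matrix protein thrombospondin 1, and mt-Cytb (7385 ± 2374). The SD of mt-Co1 exceeded its distance to each of these except mt-Cytb, so this order is not settled by 4 cultures. Among nuclear genes, Flna (7383 CPM), Actb (7286 CPM) and Tln1 (6547 CPM) followed, all parts of the actin cytoskeleton and its link to integrins. Plek, the protein kinase C substrate pleckstrin, had 6133 ± 851 CPM and Vwf, the von Willebrand factor that tethers platelets to injured vessels, 5701 ± 1110 CPM. Of the 100 most abundant genes, 76 belonged to a function list. These lists had 1200 members in all, among 27679 listed genes. They were chosen with earlier results of these data known, so the count describes the lists and is no result about the pool.

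Corrected for transcript length, Ppbp took the first place with 34755 ± 7832 TPM. Its 4 values ran from 23677 to 40643 TPM. It was followed by mt-Co1 (26224 ± 7856 TPM), Pf4 (24532 ± 2516 TPM), mt-Nd1 (24196 ± 7246 TPM) and mt-Cytb (22833 ± 6843 TPM). Then came Tmsb4x, the actin-monomer binding peptide thymosin β4, at 14212 ± 1625 TPM. Pf4 moved from rank 15 by CPM to rank 3 by TPM, and Vwf, whose transcript is long, from rank 13 to rank 70. The ranges of neighbours in the leading 15 overlapped at every step, so only distant places in this order differ beyond their spread. Itgb3 had 5833 ± 1115 TPM, Itga2b 4042 TPM and Gp1ba 2265 TPM.

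Sorted by function, 27 lists with 1200 members held 36.2 ± 0.949% of all counts. Actin and its regulators held the largest share among the lists, 7.02 ± 0.665%, followed by alpha-granule cargo (4.53 ± 0.766%), megakaryocyte and platelet receptors (4.04 ± 0.549%) and mitochondrially encoded genes (3.79 ± 1.20%). Signalling downstream of thrombopoietin and tyrosine kinases held 2.26 ± 0.164%, chaperones 1.57 ± 0.0842% and translation factors 1.47 ± 0.106%. Cytosolic ribosomal proteins held 0.799 ± 0.106%. DNA replication genes held 0.300 ± 0.0536% and genes of mitosis and cytokinesis 0.333 ± 0.0652%. The lists are of unequal size, and the ordering depends on length: per kilobase of exon, mitochondrially encoded genes held 10.6 ± 3.12%, alpha-granule cargo 7.82 ± 1.33% and actin with its regulators 6.93 ± 0.718% of the pool.

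**Figure D3:**
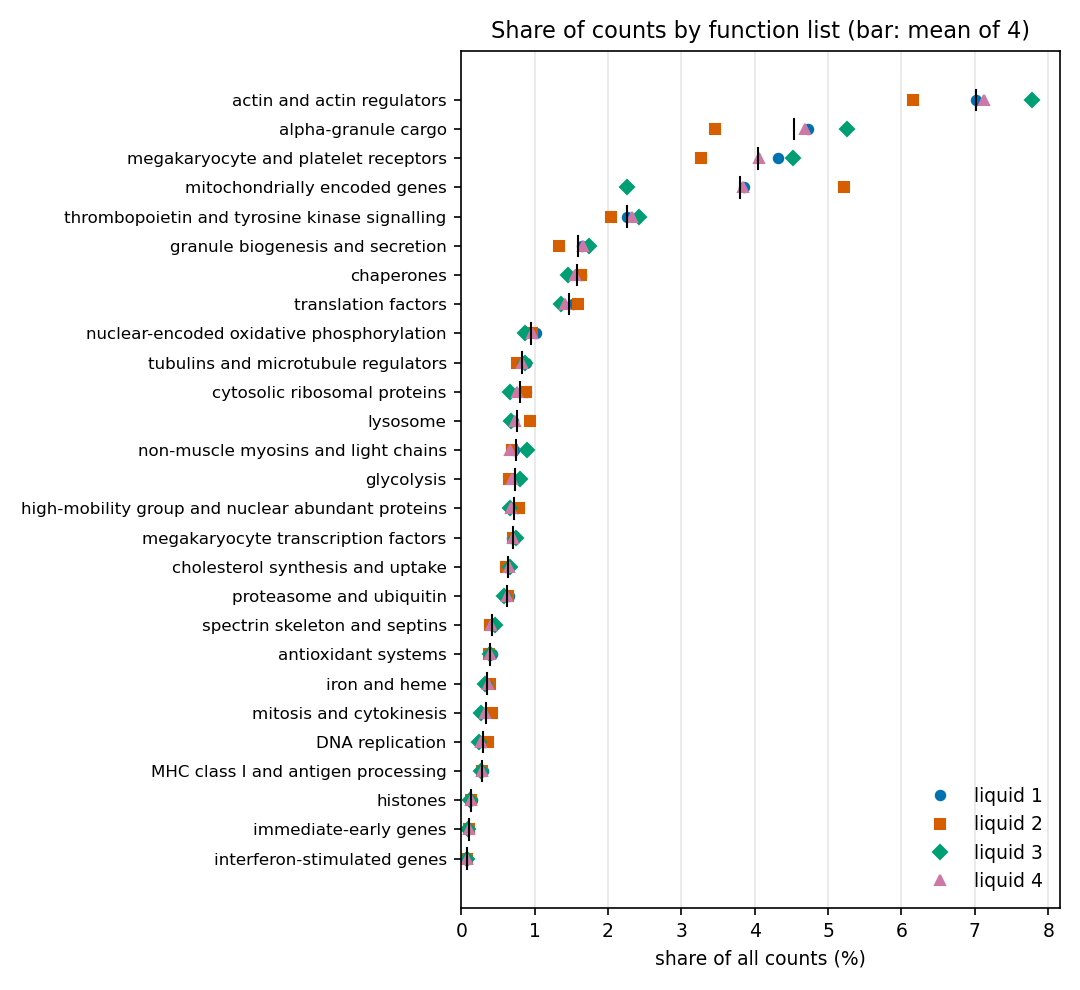
Share of all counts (%) held by each of 27 function lists in each of the 4 liquid cultures, with a bar at the mean. Actin and its regulators, granule cargo and receptors are lowest in liquid 2, and the mitochondrially encoded genes run from 2.27% in liquid 3 to 5.21% in liquid 2.

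Receptors were measured nearly completely. Of 49 genes on the list, 47 reached 1 CPM in every culture and 37 reached 100 CPM. Over all 27679 listed genes, 11249 (40.6%) reached 1 CPM and 1909 reached 100 CPM in every culture, which also applies beside the lists below. The median over all 49 receptor genes was 335 CPM, beside 29.8 CPM for all genes that reached 1 CPM in every culture. Among the integrin α subunits, Itga2b made up 72.8 ± 2.69% of the TPM of the family and Itga6, the laminin receptor subunit, 20.7 ± 2.19%. The collagen receptor subunit Itga2 followed with 3.93 ± 0.682%. Among the β subunits, Itgb3 made up 80.1 ± 1.38% and Itgb1 14.4 ± 0.646%. The fibrinogen receptor pair was therefore the leading one on both sides.

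The GPIb-IX-V complex, which binds von Willebrand factor, is built from 4 gene products. Gp9 had 3244 TPM, Gp5 2677 TPM, Gp1ba 2265 TPM and Gp1bb 83.2 TPM, the last with the shared windows noted above. In counts, Gp9 had 873, 656, 882 and 794 CPM in liquid 1 to liquid 4, and Gp5 1768, 1328, 1844 and 1649 CPM. Liquid 2 was the lowest for both.

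Thrombin is sensed through protease-activated receptors. F2rl2, the PAR3 cofactor of mouse platelets, made up 57.3 ± 3.58% of the family's TPM, F2r (PAR1) 24.5 ± 3.38% and F2rl3 (PAR4), the signalling receptor of mouse platelets, 18.2 ± 1.07%. F2r had 910, 906, 918 and 865 CPM, a spread of 2.64% of its mean, and liquid 2 lay among the others. F2rl2, in contrast, had 1631, 1221, 1730 and 1844 CPM, with liquid 2 the lowest. F2rl1 (PAR2) had 0.0809 CPM.

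Among nucleotide receptors, the ATP-gated channel P2rx1 made up 66.0 ± 2.35% of the TPM and the ADP receptor P2ry1 28.6 ± 2.15%. P2ry12, the ADP receptor that antiplatelet drugs block, made up 3.57 ± 0.785%, with 36.0, 18.6, 45.3 and 32.0 CPM. The collagen receptor Gp6 had 439 ± 106 CPM and the podoplanin receptor Clec1b 647 ± 127 CPM. Cd9, a tetraspanin, had 1624 ± 238 CPM, Selp, the alpha-granule membrane protein P-selectin, 1129 ± 177 CPM, and Treml1, another granule membrane receptor, 1097 ± 149 CPM. Cd36, a scavenger receptor found on platelets and on macrophages, had 12.7, 51.8, 17.7 and 26.9 CPM, and was highest in liquid 2.

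Alpha-granule cargo was carried by few genes. Of 49 genes on the list, 36 reached 1 CPM and 18 reached 100 CPM in every culture, and the median was 24.0 CPM. Ppbp alone gave 23.2% of the counts of the list. Ppbp had 10756, 7355, 11578 and 12474 CPM, with liquid 2 below the other cultures. Thbs1 had 9507, 6231, 12061 and 7314 CPM, so that liquid 2 and liquid 4 lay below liquid 1 and liquid 3. Vwf had 6403, 4165, 6615 and 5621 CPM. Timp3, an inhibitor of metalloproteinases, had 3107 ± 460 CPM, and Tgfb1, the growth factor TGF-β1, 2140 ± 216 CPM. The coagulation cofactor F5 had 1896 ± 451 CPM, its carrier Mmrn1 (multimerin 1) 1809 ± 308 CPM, and the transglutaminase subunit F13a1 382 ± 92.7 CPM.

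Other cargo known from platelets had few counts. Fn1, fibronectin, had 8.43 ± 3.37 CPM and the chemokine Ccl5 1.41 ± 0.820 CPM. Sparc, osteonectin, had 2.03, 0.347, 0.365 and 2.37 CPM. Among the CXC chemokines of platelets, Ppbp made up 58.1 ± 3.75% and Pf4 41.8 ± 3.72% of the TPM, and Cxcl5 0.139 ± 0.0411%. The ratio of the leading pair differed between cultures, since liquid 2 had 0.634 of the mean of the other cultures for Ppbp and 0.839 for Pf4.

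Genes that build and release granules were detected throughout. All 40 reached 1 CPM in every culture and 24 reached 100 CPM. Plek alone held 38.4% of their counts. Slc6a4, the serotonin transporter of the platelet membrane, had 1909, 916, 2123 and 1367 CPM, and was lowest in liquid 2, at 0.509 of the mean of the other cultures. Rab27b, the GTPase of granule secretion in platelets, had 1527 ± 230 CPM. In the Rab27 and Rab38 group, Rab27b made up 43.2 ± 4.196% of the TPM and Rab38, which serves lysosome-related organelles, 26.5 ± 2.67%. Nbeal2 had 444, 541, 648 and 513 CPM. Lamp1, a granule and lysosome membrane protein, varied little, with 741, 731, 705 and 744 CPM.

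Of the signalling genes, Rap1b, the small GTPase that activates integrins, had the most counts and the highest TPM, with 3830 ± 356 CPM. Rasa3, which switches Rap1 off, had 1456 ± 252 CPM, the phosphatase Ptpn11 1334 ± 154 CPM and the kinase Prkca 981 ± 139 CPM. Of 64 genes on this list, 63 reached 1 CPM and 40 reached 100 CPM in every culture. Among Src family kinases, Src made up 47.9 ± 1.59%, Lyn 33.1 ± 2.15% and Fyn 16.4 ± 0.670% of the TPM. Among Janus kinases, Jak2, a kinase of cytokine signalling, made up 53.0 ± 3.88% and Jak1 27.2 ± 1.59%. Stat3 made up 41.4 ± 1.49% of the STAT factors, Stat6 20.7 ± 1.42% and Stat5b 16.0 ± 0.541%.

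The actin list was broadly filled. Of 91 genes, 83 reached 1 CPM, 60 reached 100 CPM and 15 reached 1000 CPM in every culture. Flna, the actin cross-linker filamin A that also holds the GPIb tail, had 7187, 5950, 9147 and 7248 CPM. Tln1, the integrin activator talin 1, had 6222, 5879, 8114 and 5971 CPM, and liquid 3 lay above the other cultures for both. Parvb (3130 ± 669 CPM), Fermt3 (2848 ± 341 CPM), Zyx (2693 ± 386 CPM) and Vcl (2684 ± 527 CPM) all encode proteins at integrin adhesion sites. Pfn1, profilin 1, had 2624, 2327, 2544 and 2624 CPM.

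Many cytoskeletal families were dominated by a single gene. Flna made up 99.7 ± 0.165% of filamin TPM, while the second talin, Tln2, had 0.306 ± 0.289 CPM and the kindlin Fermt2 0.135 ± 0.117 CPM beside Fermt3. Myh9 had 4583 ± 899 CPM. Its relative Myh10, which is switched off as megakaryocytes become polyploid, had 0.685, 1.21, 0.609 and 1.05 CPM. Tpm4 made up 82.9 ± 1.17% of the tropomyosins and Tpm1 10.1 ± 0.587%. The size of these shares depends on the length used: per kilobase of the principal transcript, Tpm4 had 62.3% and Tpm1 25.02%. Tpm3 had 62.4% of its windows shared with another gene, and the part of this in the tropomyosin shares was not tested. Actb made up 99.8 ± 0.0212% of the actins. Actg1, the other cytoplasmic actin, had only 11.7 ± 1.90 CPM, and 56.7% of the windows of its transcript are shared with another gene, against 14.2% for Actb. The part of this in the level of Actg1 was not tested.

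Tubulins were mixed. Tubb1, the β-tubulin of the platelet microtubule coil, and Tubb5, the general one, made up 38.8 ± 8.52% and 32.6 ± 7.10% of β-tubulin TPM. Tubb1 had 705, 347, 787 and 514 CPM and Tubb5 1172, 1240, 976 and 1097 CPM. Liquid 2 had the lowest Tubb1 and the highest Tubb5, and it was the culture where Tubb5 led. The order of this pair depends on the length used, since Tubb5 also led by counts and per kilobase of the principal transcript, where Tubb1 had 34.2%. Tubb4b followed with 16.6 ± 1.83% and Tubb2a with 10.1 ± 0.491%. Among α-tubulins, Tuba4a made up 69.7 ± 2.20%, Tuba8 13.6 ± 1.31% and Tuba1a 10.6 ± 0.483%. Tuba1b, in which 73.8% of windows are shared with another gene, had 37.2 ± 7.003 CPM. Shared windows made up 72.9% in Tuba1a and 61.0% in Tuba1c, against 1.11% in Tuba4a and 0.181% in Tuba8. They made up 50.9% in Tubb4b and 49.6% in Tubb2a, against 0% in Tubb1 and 0.115% in Tubb5. The part of shared sequence in these tubulin shares was not tested.

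The transcription factors of the lineage were detected in large part. Of 46 factors, 41 reached 1 CPM and 21 reached 100 CPM in every culture, and together they held 0.712 ± 0.0230% of counts. The sum varied by 3.22% between cultures, while the median relative SD of single members was 12.8%. That median covers all 46 factors, of which 35 reached 10 CPM in every culture. For all genes with a mean of at least 10 CPM it was 10.6%, a set without low levels, so the medians are of unlike sets. Zfpm1, the GATA1 partner FOG1, had 682, 754, 819 and 683 CPM. Nfe2, which drives the late program of platelet release, had 650, 509, 688 and 585 CPM. Tal1 had 491 ± 37.6 CPM, Fli1 465 ± 28.8 CPM, Runx1 312 ± 23.8 CPM and the repressor Gfi1b 199 ± 26.5 CPM. Gata1 had 390, 351, 412 and 405 CPM. Gata2, which precedes Gata1 in development and is also expressed by mast cells, had 53.2, 82.3, 39.4 and 49.97 CPM, and was highest in liquid 2. Gata1 made up 93.7 ± 2.35% of GATA factor TPM, Runx1 66.4 ± 4.00% of the RUNX factors and Nfe2 50.8 ± 1.41% of its group.

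Factors of other lineages differed in level. Klf1, the erythroid factor, had 0.160 ± 0.122 CPM. Spi1, the myeloid factor PU.1, had 27.9, 54.2, 18.6 and 22.2 CPM, and Cebpa, a granulocyte and monocyte factor, 24.8, 62.5, 14.6 and 20.4 CPM. Both were highest in liquid 2. Mecom, a stem cell factor, had 1.42 ± 0.435 CPM, and Meis1 had 132 ± 13.1 CPM. D cyclins were split between Ccnd3 (53.4 ± 0.912% of TPM) and Ccnd2 (44.2 ± 0.723%), and Ccnd1 had 2.38 ± 0.734%. This split depends on the length used: per kilobase of the principal transcript, Ccnd3 had 76.4% and Ccnd2 22.6%. Ccne2 and Ccne1, the cyclins of DNA replication onset, had 24.3 ± 4.41 and 8.12 ± 1.14 CPM.

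Metabolic and other general genes followed. Glycolysis held 0.731 ± 0.0693% of counts, and included Slc2a3, the glucose transporter GLUT3, with 1987 ± 413 CPM, and Ldha, lactate dehydrogenase A, with 1459 ± 80.1 CPM. Per length their order turned, with 1570 ± 85.3 TPM for Ldha and 981 ± 230 TPM for Slc2a3. Ldha had 17.1% of its windows shared with another gene and Pkm, also on this list, 34.4%, against a list median of 0.0543%. The part of shared sequence in the share of this list was not tested. Cholesterol synthesis and uptake held 0.635 ± 0.0310%, and all but 1 of its 28 genes reached 10 CPM in every culture. Its regulator Srebf2 had 584 ± 20.5 CPM. Among chaperones of the endoplasmic reticulum, which fold secreted and membrane proteins, Calr had 1895 ± 61.3 CPM, Hspa5 1361 ± 32.3 CPM and Hsp90b1 1114 ± 39.3 CPM. Hsp90ab1, a chaperone of the cytosol, had 1605, 1711, 1335 and 1394 CPM, a relative SD of 11.7%. The iron store gene Fth1 had 1432 ± 175 CPM, and B2m, the light chain of MHC class I, 1047 ± 109 CPM. Immediate-early genes (0.1002 ± 0.00526%) and interferon-stimulated genes (0.0762 ± 0.00369%) held small shares, although Ifitm3 had 309 ± 29.0 CPM.

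Proliferation genes were detected in every culture and were highest in liquid 2. Of 48 replication genes all reached 1 CPM in every culture, and liquid 2 was the highest culture for 40. Of 47 genes of mitosis and cytokinesis it was the highest for 46. Over all 8312 genes with a mean of at least 10 CPM, liquid 2 was the highest for 51.6%. Mki67 had 210, 379, 216 and 223 CPM and Top2a 295, 383, 229 and 301 CPM. The summed myeloid, dendritic and lymphoid cell markers, given below, were also highest in liquid 2, and their part in these values was not tested. The erythroid, stem and progenitor and stromal sums were lowest there. Among the 16 stem and progenitor genes, however, liquid 2 was the highest culture for 11 and the lowest for 3. The stromal sum was 4.06 CPM in liquid 2 and 4.12 CPM in liquid 3.

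Mitochondrial and ribosomal protein genes differed widely in counts among themselves. Of the mitochondrially encoded genes, mt-Co1, mt-Cytb, mt-Nd1, mt-Nd5, mt-Nd4 and mt-Nd2 had 3233 to 11452 CPM. By contrast, mt-Co2 had 13 counts in all 4 cultures together, mt-Nd3 5, mt-Co3 3 and mt-Atp6 0. All are transcribed from the same mitochondrial genome. Between 98.0 and 100% of the 50-base windows of mt-Co2, mt-Nd3, mt-Co3 and mt-Atp6 also occur in transcripts of another gene, against 0% for mt-Cytb and mt-Nd1, 51.1% for mt-Co1 and 62.2% for mt-Nd4. How reads with several matching places were counted is not stated in the labels, and the part of shared sequence in these values was not tested. The mitochondrially encoded list held 3.85%, 5.21%, 2.27% and 3.84% of counts in liquid 1 to liquid 4, highest in liquid 2 and lowest in liquid 3. The relative SD of this share was 31.8%, against 9.47 to 16.9% for the other 3 of the 4 largest lists.

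The cytosolic ribosomal protein list held 0.799% of counts over 85 genes. Rpl4 (825 ± 121 CPM), Rps3 (713 ± 111 CPM) and Rpl8 (666 ± 101 CPM) had the most counts, while 33 genes were under 10 CPM. Per length, Rplp1 (3082 ± 224 TPM) came first, followed by Rpl8 (1740 ± 228 TPM) and Rpl4 (1460 ± 177 TPM). Rpl24, a core part of the large subunit, had 26 counts in all cultures together, and 81.7% of its windows are shared. Rps16 had 0.802 ± 0.290 CPM with 40.1% shared. The median level was 98.2 CPM for the 10 genes with under 10% of windows shared, 57.4 CPM for the 41 genes with 10 to 50%, and 7.72 CPM for the 34 genes with more. The genes with few shared windows included 3 at or near 0, which are copies expressed in other tissues. Gapdh, the glycolytic enzyme often used as a reference, had 5.95, 7.22, 5.78 and 4.67 CPM, with 82.5% of windows shared. Among protein-coding genes at 1 CPM or more in every culture, 68.3% had no shared window and 213 of 10596 had over 50%. The part of shared sequence in the level of any gene was not tested.

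**Figure D4:**
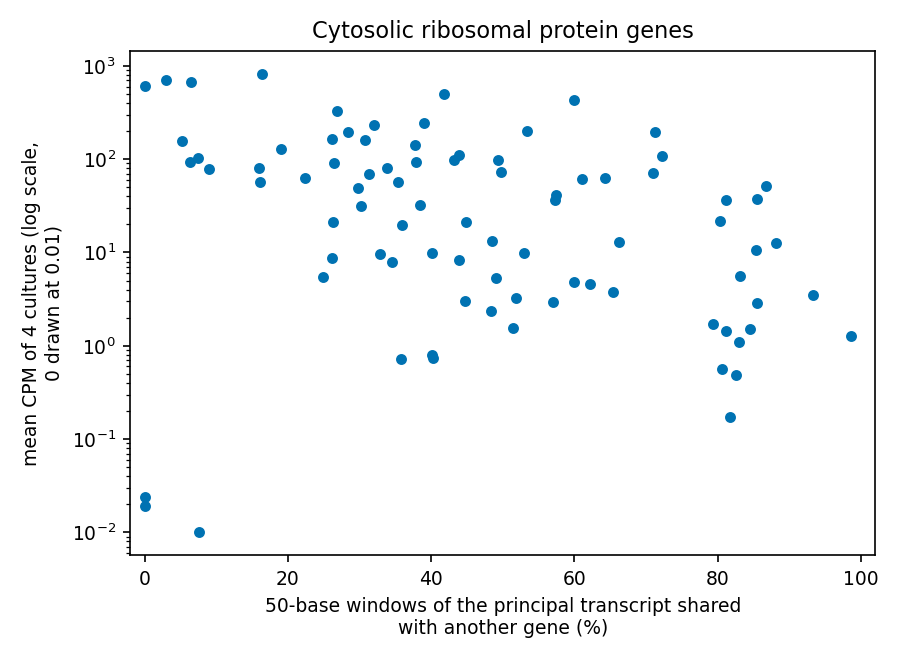
Mean CPM over 4 liquid cultures (log scale) of 85 cytosolic ribosomal protein genes against the percentage of 50-base windows of the principal transcript that also occur in transcripts of another gene. Levels of 10 CPM and below are frequent above 50%, and 3 genes with few shared windows lie at or near 0.

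Markers of other marrow cells formed a small part of the pool. The 23 monocyte and macrophage markers held 0.122%, 0.256%, 0.104% and 0.135% of counts in liquid 1 to liquid 4. Lyz2, the lysozyme of myeloid cells, gave 58.4% of this sum, with 804, 1293, 622 and 775 CPM. The colony-stimulating factor receptor Csf1r had 53.8, 176, 54.0 and 75.0 CPM, and Adgre1 (F4/80) 10.6, 47.0, 12.8 and 21.9 CPM. Liquid 2 was the highest culture for 19 of the 21 with any count, against 51.6% of all genes with a mean of at least 10 CPM. The resident macrophage markers Vsig4 and Timd4 had 0 counts in all cultures.

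Liquid 2 also had the highest sums of granulocyte markers. Mature neutrophil markers summed to 687, 1455, 280 and 374 CPM, granulocyte progenitor markers to 489, 862, 195 and 315 CPM, mast cell and basophil markers to 309, 673, 140 and 373 CPM, and dendritic cell markers to 251, 643, 190 and 287 CPM. Eosinophil markers summed to 134, 240, 68.3 and 94.04 CPM. Liquid 2 was the highest culture and liquid 3 the lowest in each of these sums. It was the highest for all 18 neutrophil and all 12 granulocyte progenitor markers. Without liquid 2 the neutrophil list held 0.0447% of counts in place of 0.0699%. Ngp, a neutrophil granule protein, had 187, 423, 84.0 and 108 CPM, Mpo, the myeloperoxidase of progenitors, 238, 429, 82.8 and 144 CPM, and Prss34, a basophil protease, 129, 326, 47.0 and 175 CPM. The lysosomal genes Psap (880, 1913, 828 and 975 CPM) and Ctsb (391, 1080, 436 and 577 CPM) were also highest in liquid 2.

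Erythroid markers were scarce, although megakaryocytes share a precursor with red cells. The list summed to 343 ± 26.5 CPM, of which Epor, the erythropoietin receptor, gave 33.1%. Alas2 and Slc4a1, defining genes of red cell precursors, had 2 and 1 counts in all cultures together, and Rhag had 0. Hbb-bt, a β-globin gene, had 16.5 ± 5.86 CPM, with 58.3% of windows shared. B cell, T and natural killer cell and stromal lists summed to at most 29.9, 34.1 and 12.6 CPM in any culture. Col1a1, the type I collagen of stromal cells, had 2.96, 0.347, 0.365 and 3.47 CPM, and Col1a2 4.67, 1.84, 2.82 and 5.90 CPM. Of the endothelial list, 6 of 10 genes reached 10 CPM in every culture, among them Pecam1 (335 ± 30.8 CPM), which platelets also carry, and the receptor Tie1 (135 ± 10.4 CPM). The defining endothelial genes Cdh5 and Emcn had 0.299 and 0.122 CPM. Of the stem and progenitor list, Angpt1 had 430 ± 51.7 CPM and Slamf1 280 ± 53.9 CPM, genes that megakaryocytes also express, while Kit had 24.6, 37.6, 10.7 and 15.3 CPM.

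**Figure D5:**
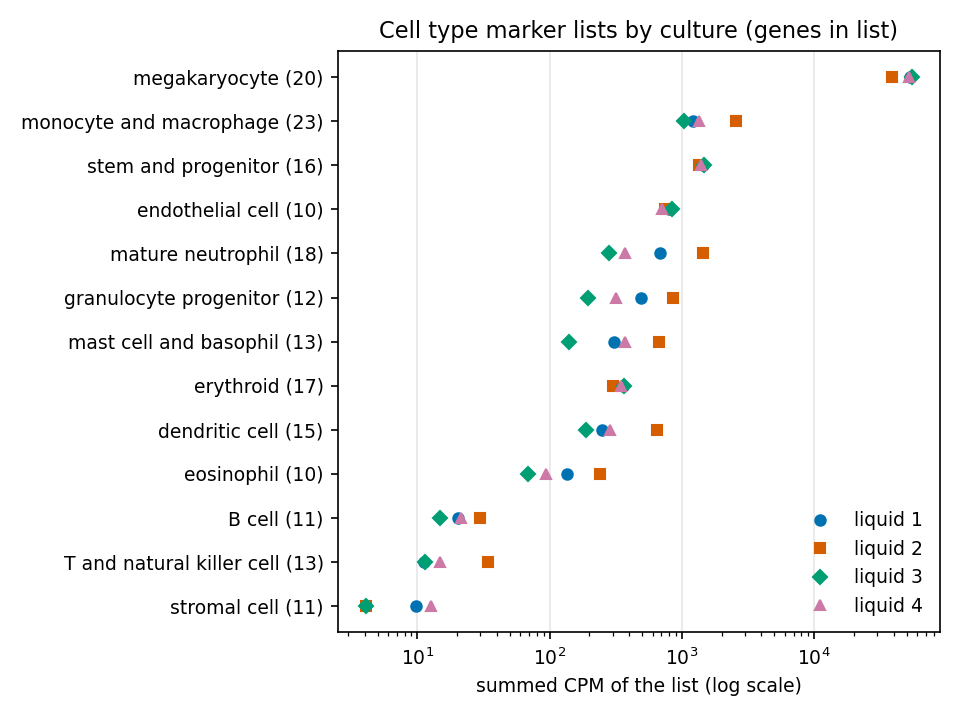
Summed CPM (log scale) of 13 cell type marker lists in each of the 4 liquid cultures, with the number of genes in brackets. The megakaryocyte list is lowest in liquid 2 and the granulocyte, macrophage and dendritic cell lists are highest there, with liquid 3 lowest for the latter.

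The spread between cultures was small for most genes and smaller still without liquid 2. The common biological coefficient of variation, the between-culture spread beyond counting error that edgeR estimates, was 18.3%, and 12.8% without liquid 2. The median SD relative to the mean was 22.4% for genes of 1 to 10 CPM, 11.2% for those of 10 to 100 CPM, 9.04% for those of 100 to 1000 CPM and 13.6% above. Counting error alone would give 8.69%, 2.84%, 1.23% and 0.414% in these classes. Without liquid 2 the highest class had 8.36%.

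The most variable genes with a mean of at least 10 CPM were high in liquid 2. By rule, the 12 with the largest relative SD included Lcn2 (85.9%), Ltf (82.2%), Ngp (77.1%), S100a9 (76.8%) and Chil3 (76.5%), known from neutrophils or other myeloid cells, and Csf3r (78.9%), the receptor of granulocyte colony-stimulating factor. Apoe (74.4%) and Lrp1 (76.9%) are known from macrophages among other cells. The others were Chd3 (83.1%), a chromatin remodeller, Fcgr2b (77.6%), an inhibitory Fc receptor, Ndst1 (76.8%), an enzyme of heparan sulfate synthesis, and Rab44 (76.7%). Liquid 2 was the highest culture for all 12. Without it, their relative SD was 8.30% (Ndst1) to 54.9% (S100a9), with 11.5% for Chd3, 19.0% for Apoe, 40.7% for Lrp1, 36.6% for Chil3 and 41.7% for Ltf. The 12 least variable genes had relative SDs of at most 1.20%. Ints6, a subunit of the Integrator complex, had 53.0, 53.4, 53.3 and 53.3 CPM, a relative SD of 0.326%. Counting error alone gives a median of 2.84% for genes of 10 to 100 CPM, so this value marks no special stability. Ogdh, an enzyme of the citric acid cycle, had 381, 388, 378 and 384 CPM, and Cers2, a ceramide synthase, 304, 299, 298 and 304 CPM. These genes were picked for their spread, so its size in them is a description. The filter used a mean that includes liquid 2, which favours genes high there. Ndst1, Csf3r and Chd3 had at most 8.56, 7.70 and 6.64 CPM in the other cultures, so they passed it through liquid 2 alone.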

How the data were processed

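PolyA-selected RNA of 4 liquid cultures was sequenced as stranded libraries, per the labels' protocols. The authors deposited raw read counts for 27679 genes. The submitters' processing notes name bcl2fastq, STAR 2.7.10b, HTSeq 0.13.5 and the build GRCm39; the annotation release and the strand setting are not stated there, so genes that overlap an antisense gene or have near-identical copies are uncertain.

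From these counts CPM was computed by library total. TPM used merged exon lengths of an annotation on GRCm38, matched by gene identifier. Of the identifiers, 26534 had a symbol and 1145 did not (0.124% of counts); 11 symbols held by several identifiers are not named, and 2 stray text lines and the columns of the other culture condition were left out. A floor of 3 counts covers counting error only. Shared sequence was the percentage of 50-base windows of a principal transcript found in transcripts of another gene. Promoters came from RefSeq.

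Spread is the SD over 4 cultures and the common dispersion of edgeR 4.0.16, checked on simulated data; the alternative was DESeq2 1.42.0. Other steps used Python 3.11.15, pandas 2.3.3 and R 4.3.3. With 1 group, no test was made and no p-value is given.

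Genes were named by rule: the 30 most abundant, up to 4 leading members of each list and the leading pair of each family. To these came the 12 most and 12 least variable with a mean of at least 10 CPM. The 10 most abundant in no list were also named. Further genes, such as low members and those with shared sequence, were named after their values were seen. The members and lists were chosen with earlier results of these data known. Alternatives were other scaling, depth, length, filter and denominator, and leaving out each culture. Some genes are not reported here.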

Additional observations from a re-analysis of the deposited data

Results flagged for a closer look

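One culture lay far from the other 3 for 12 of 166 genes named in the text and for 1 of 40 lists, judged by the gap to the nearest culture relative to the whole range. With groups of 4, chance gives about 1 such case in 20. Some of these genes, among them Apoe, Ndst1, Csf3r and Chd3, were named for their large spread. A gene with counts in 1 culture alone, such as Alas2 or Slc4a1, always meets the rule. The number of cases is therefore no test against chance. Liquid 2 was the distant culture in 9 cases, liquid 1 in 2 and liquid 3 in 2.

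Liquid 2 had the highest value of the lysosomal gene Psap (1913 CPM, against 828 to 975 in the others), the lipid carrier Apoe (412 CPM, against 103 to 149), the proliferation marker Mki67 (379 CPM, against 210 to 223) and the summed T and natural killer cell markers (34.1 CPM, against 11.2 to 14.9). The same culture had the highest Ndst1 (28.5 CPM, against 7.38 to 8.56), Csf3r (24.6 CPM, against 5.6005 to 7.70) and Chd3 (23.5 CPM, against 5.32 to 6.64). It had the lowest Plek (4864 CPM, against 6490 to 6680) and the lowest Lyn (278 CPM, against 350 to 359). Liquid 3 had the highest Tln1 (8114 CPM, against 5879 to 6222), and liquid 1 the highest Calr (1986 CPM, against 1853 to 1873). The red cell genes Alas2 (0.0406 CPM in liquid 3) and Slc4a1 (0.0312 CPM in liquid 1) had 0 counts in the other cultures, and these values lie under the floor of 3 counts.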

How the results depend on the processing

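No paired analysis was possible because a single group is described and no groups were compared. With mitochondrially encoded genes left out of the total, the 10 and 100 most abundant genes held 7.67% and 22.3% of counts. Per kilobase of exon they held 18.8% and 35.4%, cytosolic ribosomal proteins 1.83%, mitochondrially encoded genes 10.6%, alpha-granule cargo 7.82% and monocyte and macrophage markers 0.334%. Per kilobase of the principal transcript, an alternative chosen after seeing the data, the values in the same order were 14.8%, 31.2%, 2.14%, 7.45%, 6.38% and 0.248%, and actin with its regulators held 7.79%. The biological coefficient of variation was 12.8 to 20.5% when each culture was left out in turn, the lowest without liquid 2; it was 14.5% for genes with a mean of at least 10 CPM and 11.4% as the median gene-wise estimate of DESeq2. Of 283 named genes, 20 moved over 1.5 times without liquid 2, and 6 moved by over 1 SD under TMM scaling. Of 27 families, 25 had the same leader by counts and 26 by principal transcript length. The size of a leader's share could still depend on the length used. By principal transcript length the share of Stat3 was 54.5% in place of 41.4% and that of Runx1 75.7% in place of 66.4%, while Gp9 stayed at 39.3%. Depth limits values near the floor of 3 counts, and shared sequence limits levels of genes with near-identical copies.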

Other observations

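Several function lists were measured beside those described above. Nuclear-encoded genes of oxidative phosphorylation, which build the respiratory chain beside the mitochondrially encoded ones, held 0.952 ± 0.0661% of counts, and 77 of 83 reached 1 CPM in every culture. The genes of granule biogenesis and secretion described above held 1.60 ± 0.179%, tubulins and microtubule regulators 0.835 ± 0.0558%, and non-muscle myosins 0.747 ± 0.104%. The lysosome list held 0.700%, 0.934%, 0.680% and 0.739% in liquid 1 to liquid 4, and liquid 2 was the highest for 29 of its 38 genes, against 51.6% of all genes with a mean of at least 10 CPM. High-mobility group and other abundant nuclear proteins held 0.720 ± 0.0595%, proteasome and ubiquitin genes 0.625 ± 0.0289%, the spectrin skeleton with septins 0.419 ± 0.0286%, antioxidant systems 0.397 ± 0.0190%, iron and heme genes 0.353 ± 0.0271%, and MHC class I with antigen processing 0.281 ± 0.0109%. Histones held 0.135 ± 0.00798%, with 19 of 69 genes (27.5%) at 1 CPM in every culture, against 40.6% of all listed genes. Replication-dependent histone mRNAs lack a polyA tail, and the median histone gene had 40.4% of its windows shared with another gene. The part of either in these levels was not tested.

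Genes of the sex chromosomes gave a uniform picture. Xist, the RNA of the inactive X chromosome, had 0 counts in all 4 cultures, where 3 counts correspond to 0.0609 to 0.104 CPM. The strand setting of the counting is not stated, and its part in this 0 was not tested. The Y-linked genes Ddx3y (48.7, 55.3, 53.1 and 55.4 CPM), Eif2s3y (51.6, 50.5, 42.3 and 53.5 CPM), Uty (33.7, 36.8, 39.8 and 40.0 CPM) and Kdm5d (21.5, 25.8, 20.9 and 22.4 CPM) were detected in each. Neither the sex of the mice nor pooling of animals is stated in the labels.

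Long noncoding RNAs held a small part of these polyA-selected libraries, with 0.270 ± 0.0116% of counts in the lincRNA class. Malat1 had 273 ± 44.0 CPM and Neat1 had 150, 294, 207 and 178 CPM, highest in liquid 2. These genes were looked up after the lists had been read and belong to no comparison.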
